A study of Mus musculus with 6 samples.

Results

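Hemidesmosomes are the junctions that fasten an epithelial cell to the basement membrane beneath it. The genes described here encode 9 proteins that anchor basal cells to that membrane, not all of them within hemidesmosomes: the integrin chains Itga3, Itga6, Itgb1 and Itgb4, the transmembrane collagen Col17a1, the plakins Dst and Plec, and the laminin chains Lama3 and Lamb3. They were taken by name from a table of 22180 genes measured in sorted mouse mammary basal cells, and all 9 had a row of their own in it. Cells from mice lacking Trp53 and both products of Cdkn2a (genotype Trp53-/-, p16ink4a-/- and p19arf-/-), here called knockout, were set against cells from wild type mice. Each genotype had 3 biological replicates, with 1 array per biological replicate. The sample titles do not say whether a replicate was 1 mouse or a pool. All mice were adult virgin females aged 8 to 14 weeks. Freshly digested glands were depleted of blood and endothelial cells with beads against CD45, CD31 and TER119, stained for CD49f, CD24 and other surface proteins, and the basal fraction was sorted into a stabilising solution for RNA. The genotype labels name neither a Cre driver nor a strain background, and the sources used here do not give the sort gate.

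In a hemidesmosome the integrin made of the Itga6 and Itgb4 products binds laminin-332 outside the cell, and plectin (Plec) and the epithelial product of Dst (BPAG1, or BP230) tie it to keratin filaments inside. Collagen XVII (Col17a1, BP180) spans the membrane beside that integrin. The Itga3 and Itgb1 products form another receptor for laminin-332, one that connects to actin. In the mammary gland the basal layer, made of contractile myoepithelial cells and their precursors, sits directly on the basement membrane, and CD49f, the Itga6 protein, is commonly used to sort it.

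None of the 9 anchoring genes passed the test for a difference between the genotypes. With limma, at an adjusted p under 0.05, 0 of the 9 were higher and 0 were lower in knockout cells, and 0 reached an unadjusted p under 0.05. Over all 22180 genes 0.0% passed the adjusted threshold, and 736 genes, or 3.32%, had an unadjusted p under 0.05, so the members' count can be read only against a comparison in which no gene passed. The 9 differences (knockout minus wild type, log2 scale) lay between -0.27 for Plec and 0.21 for Itgb4, 5 of them above and 4 below 0. Their median was 0.03, and that of all genes was -0.0067. Without regard to sign, the median difference of the 9 genes was 0.056 and that of all genes 0.112. All 9 of the 95% intervals included equal levels, and the outermost bounds were 0.639 times the wild type level, for Plec, and 1.56 times, for Itgb4.

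The promoters of the genes are shown for 3 members, because the knockout mice lack a transcription factor, p53, and because their upstream sequences are of different types. RefSeq promoter windows of build GRCm38.p6 were matched by symbol for 5 of the 9 members (Itga3, Itgb1, Col17a1, Dst and Lamb3), with 8 windows in all. The 250 bases before the start site are printed 5′ to 3′ on the strand of the gene. Capitals mark GC boxes (GGGCGG, either strand) in Itga3 and Itgb1 and TATA boxes (TATAAA, either strand) in Col17a1.
Itga3 (chr11:95076715-95076964, minus strand): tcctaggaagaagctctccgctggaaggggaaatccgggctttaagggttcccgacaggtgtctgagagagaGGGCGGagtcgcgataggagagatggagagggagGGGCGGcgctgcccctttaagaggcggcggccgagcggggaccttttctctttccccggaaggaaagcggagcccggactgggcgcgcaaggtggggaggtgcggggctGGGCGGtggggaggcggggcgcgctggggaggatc
Itgb1 (chr8:128685404-128685653, plus strand): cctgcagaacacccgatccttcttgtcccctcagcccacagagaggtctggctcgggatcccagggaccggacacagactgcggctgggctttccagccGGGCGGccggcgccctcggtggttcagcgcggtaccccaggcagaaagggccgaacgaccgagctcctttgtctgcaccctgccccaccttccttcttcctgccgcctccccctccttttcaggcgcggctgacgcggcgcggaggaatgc
Col17a1 (chr19:47692043-47692292, minus strand): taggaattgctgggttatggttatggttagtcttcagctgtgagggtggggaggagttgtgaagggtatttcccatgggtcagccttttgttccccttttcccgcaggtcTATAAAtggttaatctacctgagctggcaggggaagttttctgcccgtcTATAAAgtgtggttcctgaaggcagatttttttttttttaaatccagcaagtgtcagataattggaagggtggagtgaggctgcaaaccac
Itga3, shown as the one member whose genotype groups did not overlap on the arrays, held 3 GC boxes in this window, at 178, 144 and 35 bases before the start. Itgb1 held 1, and its window was 68.0% G or C. The Col17a1 window was 46.0% G or C and held 2 TATA boxes, at 140 and 91 bases before the start, and no GC box. A GC box stood in 4 of the 8 member windows and in 32.7% of all 32851 windows searched, and a TATA box in 1 of the 8 and in 12.4% of all. The p53 family half-site, searched by its name on both strands, was in 0 of the 8 windows and in 7.13% of all, and the AP-1 site TGANTCA in 0 of the 8 and in 6.75% of all. No marked match overlapped one of another motif in the member windows. A match is a run of letters and was not tested as a binding site, and the absence of one describes only these windows.

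Itga6, the alpha chain of the hemidesmosomal integrin and the CD49f sort antigen, had a genotype difference smaller than the SD of either group. Its log2 values were 10.53, 10.34 and 10.65 on the knockout arrays, against 10.57, 10.28 and 10.53 on the wild type arrays. The groups overlapped throughout, and replicate 2 was the lowest array in each genotype. The means were 10.51 ± 0.154 in knockout cells and 10.46 ± 0.157 in wild type cells (SD, n = 3 each). The log2 fold change was 0.04 ± 0.147 (SE, limma adjusted p = 1.0), and the 95% interval ran from -0.29 to 0.38. Cells of both genotypes were stained for this protein before sorting, so the transcript was measured in cells that may have been selected on it.

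Itga3 was the single member whose groups did not overlap. This gene, the alpha chain of the laminin receptor that pairs with the Itgb1 product, read 8.47, 8.54 and 8.60 in knockout cells, against 8.69, 8.67 and 8.67 in wild type cells. All 3 knockout arrays thus lay below all wild type arrays, which themselves were almost equal, with an SD of 0.0092. The difference was small, 0.906 times the wild type level, and did not pass (log2 fold change -0.14, SE 0.148, limma adjusted p = 1.0). An exact two-sided permutation test of the 3 arrays against 3 gave 0.1, the smallest p this design allows. Same-numbered arrays differed by -0.221, -0.135 and -0.07. Groups lay apart in 1 of the 9 members (11.1%) and in 7.68% of all genes, with the knockout below in 4.05% and above in 3.63% of all genes. After quantile normalization the Itga3 groups overlapped and those of Plec, also lower in knockout cells, lay apart in their place.

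Of the beta chains, Itgb1, the partner of Itga3 and of many other integrin alpha chains, read 9.70, 9.43 and 9.84 in knockout cells, against 9.87, 9.54 and 9.66 in wild type cells. As for Itga6, replicate 2 was the lowest array of each genotype, and the groups overlapped. Its log2 fold change was -0.03 ± 0.169 (SE, limma adjusted p = 1.0). Itgb4, whose long cytoplasmic tail binds plectin, had the largest difference upward among the 9. It read 8.00, 8.37 and 7.83 in knockout cells, against 7.78, 7.98 and 7.79 in wild type cells. Here replicate 2 was the highest array of each genotype, the reverse of Itga6 and Itgb1, and the lowest knockout array lay below the highest wild type array. The log2 fold change was 0.21 ± 0.189 (SE, limma adjusted p = 1.0), and the 95% interval ran from -0.21 to 0.64. The value was 0.06 when knockout replicate 2 was left out. Leaving out knockout replicate 3 gave 0.34, and leaving out wild type replicate 2 gave 0.28. Same-numbered arrays, if they are pairs, were 0.219, 0.392 and 0.033 apart with the knockout array above its partner every time, and with replicate as a block the limma adjusted p was still 1.0. A second row named both Itgb4 and another gene, B230344G16Rik, was left out by the rule, and differed by -0.0087.

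**Figure D1:**
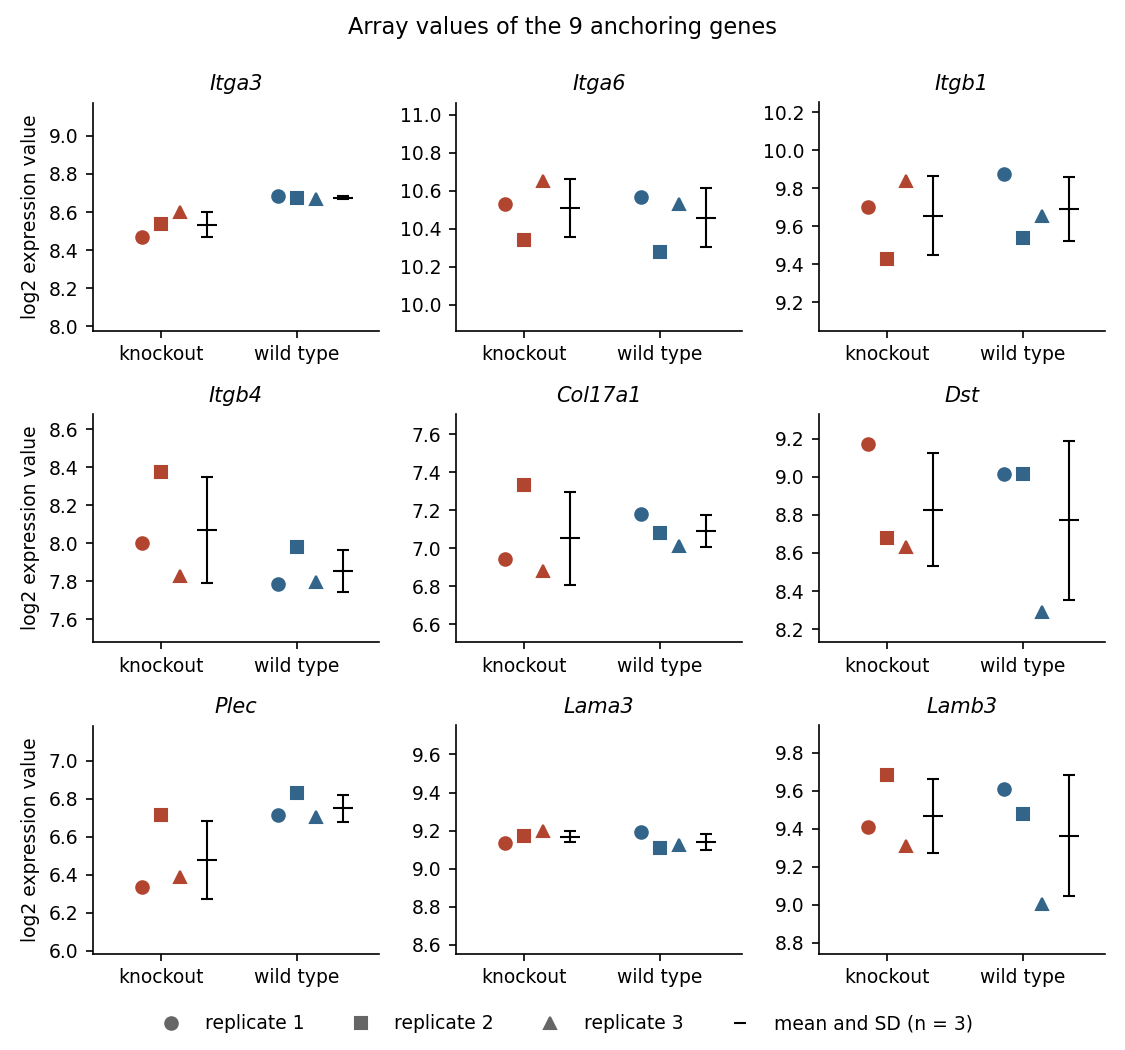
Log2 expression values of the 9 anchoring genes, 1 panel per gene, with the 3 knockout arrays (red) left of the 3 wild type arrays (blue), symbols for replicate number, and the mean and SD (n = 3) beside them. Every panel spans the same height on the log2 scale, and only the Itga3 panel has all 3 knockout arrays below all wild type arrays.

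Col17a1, the collagen with a transmembrane segment, read 6.94, 7.33 and 6.88 in knockout cells, against 7.18, 7.08 and 7.01 in wild type cells. Knockout replicate 2 was above every wild type array and the other knockout arrays below them all. The log2 fold change was -0.04 ± 0.178 (SE, limma adjusted p = 1.0), and without knockout replicate 2 it was -0.18.

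Among the plakins, Dst was the most variable member. It read 9.17, 8.68 and 8.63 in knockout cells, against 9.01, 9.01 and 8.29 in wild type cells, a range of 0.882 over the 6 arrays. Replicate 3 was the lowest array in both genotypes, and the groups overlapped. The log2 fold change was 0.06 ± 0.245 (SE, limma adjusted p = 1.0). Leaving out knockout replicate 1 or wild type replicate 3 turned the sign (-0.12 and -0.19), and array weights moved the value to 0.38. Dst encodes both epithelial and neuronal or muscle forms from several start sites, and the row does not say which form was measured.

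Plec, which links the Itgb4 product to keratin filaments, had the largest difference downward. It read 6.34, 6.72 and 6.39 in knockout cells, against 6.71, 6.83 and 6.70 in wild type cells. Knockout replicates 1 and 3 lay below every wild type array, and knockout replicate 2 lay within the wild type range. Same-numbered arrays were -0.376, -0.117 and -0.316 apart, with the knockout array always the lower, and the adjusted p with replicate as a block was 1.0. The log2 fold change was -0.27, or 0.829 times the wild type level, with a standard error of 0.166 and a 95% interval from -0.65 to 0.11 (limma adjusted p = 1.0). Without knockout replicate 2 it was -0.39, with an unadjusted limma p of 0.0576 and an adjusted p of 0.999. A second row, which the annotation gives to both Plec and Parp10, ran the other way, at 6.49, 6.49 and 6.58 in knockout cells and 6.51, 6.27 and 6.06 in wild type cells, a difference of 0.24. That row cannot be assigned to either gene.

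Lama3 and Lamb3 encode chains of laminin-332, which the basal cell itself secretes into the basement membrane. Lama3 was the steadiest of the 9 genes. It read 9.14, 9.17 and 9.20 in knockout cells, against 9.19, 9.11 and 9.12 in wild type cells, a range of 0.0874 over the 6 arrays. The groups overlapped, and the log2 fold change was 0.03 ± 0.142 (SE, limma adjusted p = 1.0). That standard error is larger than the gene's own spread because limma draws each variance toward that of genes of like level. Lamb3 varied more, at 9.41, 9.68 and 9.31 in knockout cells, against 9.61, 9.48 and 9.003 in wild type cells. Wild type replicate 3 was the lowest array. The log2 fold change was 0.10 ± 0.198 (SE, limma adjusted p = 1.0), and leaving out wild type replicate 3 or knockout replicate 2 turned the sign (-0.077 and -0.0057).

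**Figure D2:**
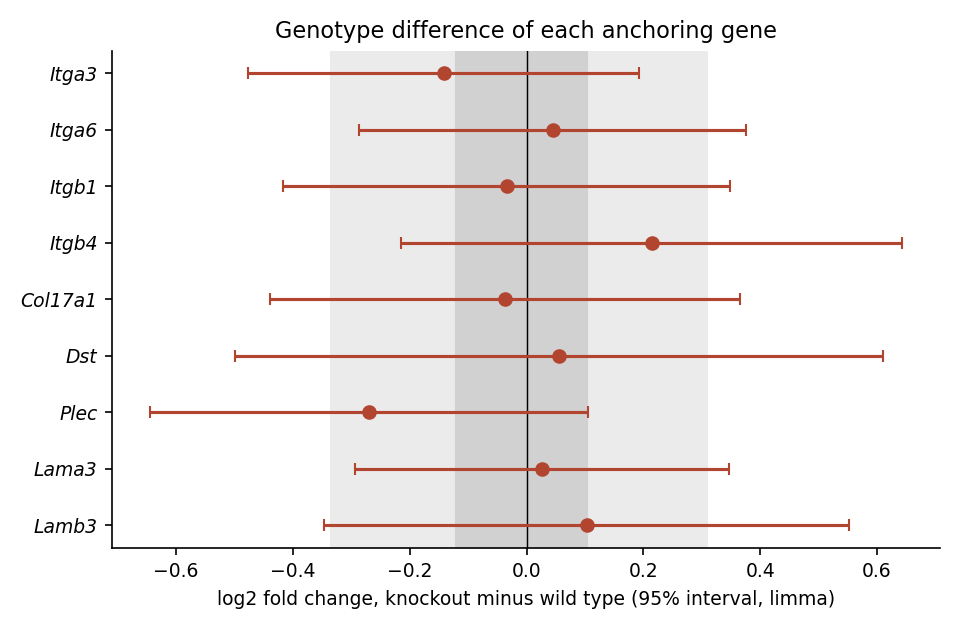
Log2 fold change (knockout minus wild type) of each anchoring gene with its 95% limma interval. The dark band spans the middle 50% of all 22180 genes, from -0.12 to 0.10, the light band the middle 90%, from -0.33 to 0.31, and all 9 intervals include 0.

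Which arrays were high and which were low differed from gene to gene. Of the 9, 4 were highest on knockout replicate 2 and 4 on knockout replicate 3, while in wild type cells 6 were highest on replicate 1, 3 on replicate 2 and 0 on replicate 3. The mean of the 9 deviations from each gene's own average was -0.009, 0.053 and -0.051 on the knockout arrays and 0.093, 0.024 and -0.11 on the wild type arrays, so the mean over the genes also overlapped between the genotypes. The lowest array had the same replicate number in both genotypes for 5 of the 9 genes (Itga6, Itgb1, Col17a1, Dst and Lamb3) and for 38.6% of all genes. The highest array had the same number for 2 of the 9 (Itgb4 and Plec) and for 40.1% of all genes. Itga6 and Itgb1 were both low on replicate 2 of each genotype, at -0.143 and -0.246 in knockout cells and -0.202 and -0.133 in wild type cells relative to their means. On the same arrays Itgb4 stood at 0.414 in knockout cells and 0.022 in wild type cells.

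**Figure D3:**
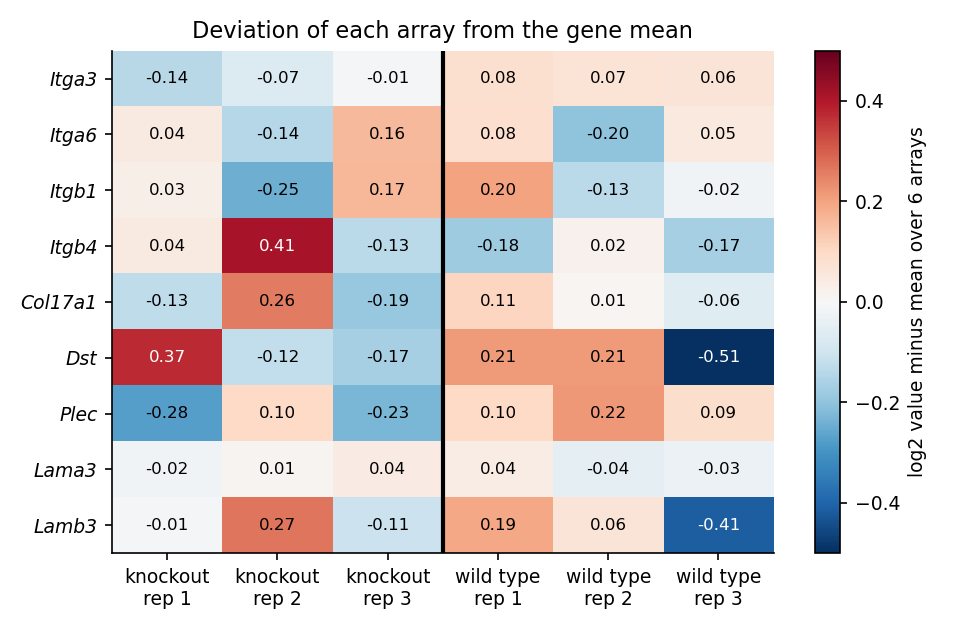
Deviation of each array (columns, knockout left of the line) from the mean of each anchoring gene (rows) over 6 arrays, in log2 units. Itga6 and Itgb1 are low in both replicate 2 columns, Dst and Lamb3 are lowest on wild type replicate 3 at -0.51 and -0.41, and Lama3 stays within 0.05 of its mean.

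Genes whose array-to-array profile lay nearest to that of Itga6 were sought among 9573 genes outside the 9 with a mean level of at least 6, by the root mean square difference over the 6 arrays after centring. The nearest were C1qbp, with a difference of 0.031, Rraga with 0.0392 and Tomm20 with 0.0397, where the Itga6 profile itself had a root mean square of 0.129. All 3 were, like Itga6, lowest on replicate 2 of each genotype. C1qbp read 8.50, 8.28 and 8.54 in knockout cells, against 8.54, 8.25 and 8.51 in wild type cells. Nearest to the mean profile of the 9 genes were Garnl3, Rusc2 and Akt2, with differences of 0.0234, 0.0246 and 0.0249 from a profile whose own root mean square was 0.067. With 6 arrays and 9573 genes searched, profiles this close are a description of these arrays.

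The wider adhesion machinery was followed in 87 measured genes of 92 listed: other laminins, basement membrane components, other integrins, actin adhesion adaptors, tetraspanins and receptor partners, intermediate filament proteins and plakins, and proteases of laminin-332 or collagen XVII with the inhibitor Timp3. With limma 0 were called higher and 0 lower, and 1 had an unadjusted p under 0.05. Of the 87 genes 35 were higher and 52 lower in knockout cells, with a median log2 fold change of -0.03. Groups lay apart for 7 of them, 1 with the knockout above and 6 with the knockout below, which is 8.05% beside 7.68% of all genes.

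Among the other integrins, 7 were higher and 7 lower. The one gene under an unadjusted p of 0.05 was Itga5, which with Itgb1 forms the classical fibronectin receptor. It read 8.43, 8.63 and 8.57 in knockout cells, against 8.82, 8.93 and 9.01 in wild type cells, with no overlap. Its log2 fold change was -0.38 ± 0.154 (SE, limma adjusted p = 1.0). Itga1, a collagen receptor chain, had a log2 fold change of 0.24 and Itgb8, which pairs with the alpha v chain, of 0.24, and neither passed.

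Of the 8 other laminin chains 5 were higher and 3 lower, with a median of 0.07. The log2 fold changes of Lama1, Lamc3 and Lama4, none past the threshold, were 0.29, 0.22 and 0.26. Other basement membrane genes had 7 higher and 13 lower members and a median of -0.06. Nid1, which bridges laminin and collagen IV networks, had the widest spread there, at 10.49, 9.51 and 10.71 in knockout cells, against 10.36, 9.03 and 9.35 in wild type cells. Replicate 2 was the lowest array of each genotype for Nid1, as for Itga6 and Itgb1, and its log2 fold change was 0.66 ± 0.387 (SE, limma adjusted p = 1.0). Npnt, an integrin ligand of basement membranes, had a log2 fold change of -0.47, and Lad1, an anchoring filament protein, of -0.33, and neither passed.

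Actin adhesion adaptors had 7 higher and 9 lower members and a median of -0.02. Tns3, a tensin that binds integrin tails, read 7.16, 7.41 and 7.60 in knockout cells, against 7.09, 6.97 and 6.97 in wild type cells, a log2 fold change of 0.38 with an unadjusted limma p of 0.056 (adjusted p = 1.0). Its knockout arrays all lay above the wild type arrays. Fermt1, the epithelial kindlin that activates beta integrins, had a log2 fold change of -0.30, and Bcar1, an adhesion docking protein, of -0.22, and neither passed.

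Among tetraspanins and other receptor partners, 5 were higher and 6 lower, with a median of -0.01. Cd82, a tetraspanin, had a log2 fold change of -0.61, the syndecan Sdc1 of -0.27 with all knockout arrays below all wild type arrays, and Sdc4 of -0.11, and none of them passed. Cd151, the tetraspanin known as a partner of laminin-binding integrins and named here after its value was seen, read 9.15, 9.72 and 9.14 in knockout cells, against 9.37, 10.02 and 9.17 in wild type cells. It was highest on replicate 2 of each genotype, as Itgb4 was, and the groups overlapped.

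The list of intermediate filament proteins (keratins, vimentin and desmin) and other plakins had 3 higher and 6 lower members and a median of -0.05. Krt14, the basal keratin, was 13.25 ± 0.039 in knockout cells and 13.37 ± 0.122 in wild type cells (SD, n = 3 each), with all knockout arrays below all wild type arrays and a log2 fold change of -0.12 that did not pass. Ppl (periplakin) had a log2 fold change of 0.12 and Krt17 of -0.05. Of the 9 processing genes, which are proteases apart from the inhibitor Timp3, 8 were lower and 1 was higher, with a median of -0.14. Adam17, a sheddase of collagen XVII, had a log2 fold change of -0.40, Mmp9, a gelatinase, of -0.18 and Adam10 of -0.37, and none of these passed. For Adam17, Adam10, Cd82 and Npnt, wild type replicate 1 lay below every knockout array and the other wild type arrays above them all, as did the luminal list, whose means were 7.58, 7.72 and 7.30 in knockout cells and 7.23, 8.36 and 8.05 in wild type cells. With the luminal list mean as a covariate their log2 fold changes were -0.08, -0.03, -0.30 and -0.23. These genes share with that mean the placing of the wild type arrays around the knockout arrays, but not the full array order. How far the adjustment itself drew their differences in was not tested. A part of luminal cells in them was not tested.

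**Figure D4:**
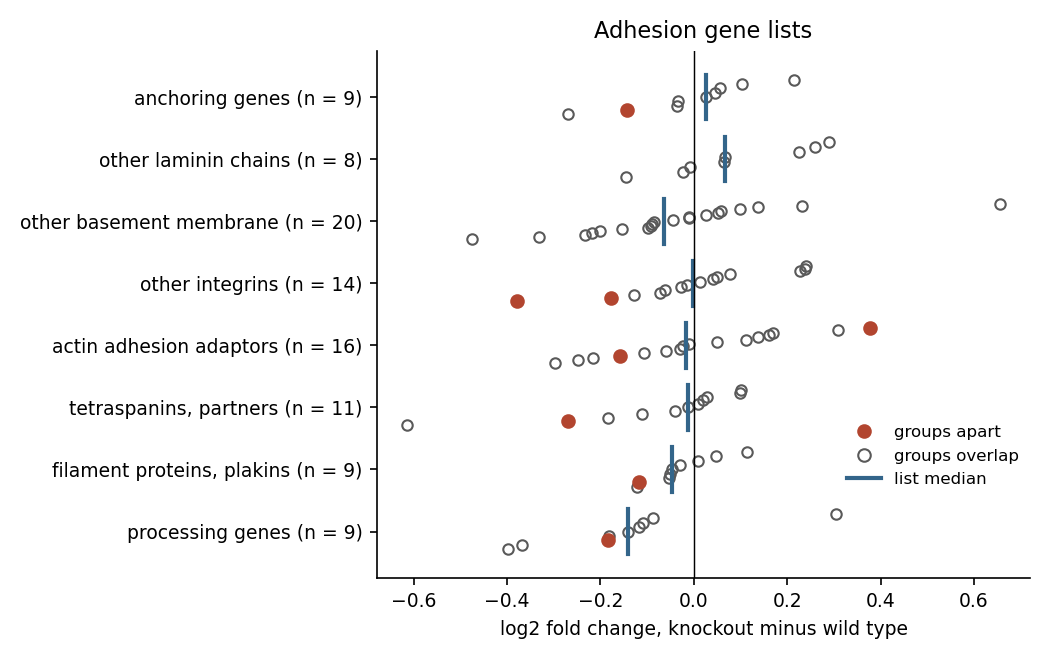
Log2 fold changes (knockout minus wild type) of the 9 anchoring genes and of 87 other adhesion genes in 7 lists, 1 point per gene, filled where the 3 arrays of one genotype all lie to one side of the other, with a blue bar at the list median. The medians lie between -0.14 for the processing genes and 0.07 for the other laminin chains, and filled points stand in 6 of the 8 rows.

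The arrays carried the defining transcripts of basal cells and also transcripts of luminal and fibroblast markers. In bulk samples fewer cells of a type and less RNA per cell cannot be told apart. The 13 measured basal markers had mean levels between 10.61 and 10.82 on the knockout arrays and between 10.58 and 10.73 on the wild type arrays, with 4 higher and 9 lower, and no marker list had a member past the threshold. Trp63, the basal lineage factor, had a log2 fold change of 0.35, Igfbp5 of 0.20 and Myh11 of 0.23. These were the 3 of smallest p, in a list whose median was -0.04. Krt14 at -0.12 and Acta2 at -0.07 were among the 9 lower. Luminal markers were lower in 20 of 21 cases, with list means of 7.58, 7.72 and 7.30 on the knockout arrays, against 7.23, 8.36 and 8.05 on the wild type arrays, and Anxa3, Krt18 and Wfdc2 had log2 fold changes of -0.48, -0.61 and -0.90. With this luminal mean as a covariate the log2 fold change of Itga6 was -0.05, of Itgb1 -0.16, of Itgb4 0.31 and of Itga3 -0.15, and none passed.

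Fibroblast markers had list means between 6.57 and 6.66 on the knockout arrays and between 6.12 and 6.34 on the wild type arrays, which did not overlap. Of the 12, 10 were higher in knockout cells, and Dpt, Lum and Dcn had log2 fold changes of 1.21, 1.29 and 0.54. In this list 4 of the 12 had an unadjusted p under 0.05, beside 3.32% of all genes, and 0 passed. Endothelial markers (7 of 12 higher, Pecam1 at 0.37, Kdr at 0.31 and Cdh5 at 0.27) had means between 5.37 and 5.45 on the knockout arrays and between 5.24 and 5.51 on the wild type arrays. Immune markers (7 of 10 measured genes higher, with no red cell marker among them, Cd68 at 0.36, Ptprc at 0.23 and Lyz2 at 0.45) had means between 5.14 and 5.28 on the knockout arrays and between 4.98 and 5.18 on the wild type arrays. The endothelial and immune means all lay below the lowest array median, 5.73, so these means do not show that such cells were present. Single markers differed. Cd68 (7.51 in knockout and 7.15 in wild type cells) and Cdh5 (6.80 and 6.53) lay above that median, and others, such as Ptprc (3.59 and 3.36), below it. All knockout arrays of Cd68 lay above all wild type arrays, as in 3.63% of all genes. Of the fibroblast markers, Lum (5.41 in knockout and 4.13 in wild type cells) and Fap (3.70 and 3.90) lay below that median too. So did the wild type mean of Pdgfra, 5.03. Fap ran the other way from most of its list, with all knockout arrays below all wild type arrays, as in 4.05% of all genes. Fibroblasts also express Itgb1 and other genes of the adhesion lists, and the part of these cells in the results was not tested.

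The deleted genes could not check the labels. Cdkn2a read 6.25, 6.31 and 6.39 on the knockout arrays and 6.42, 5.84 and 6.48 on the wild type arrays, a log2 fold change of 0.07 ± 0.197 (SE, limma adjusted p = 1.0), and the sources used here do not say whether its probes lie in the deleted part. Trp53 was not analysed here. Pearson correlations between arrays, across genes, lay between 0.971 and 0.988, and no arrays held identical values. Array medians over the 22180 genes lay between 5.73 and 5.81.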

How the data were processed

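The deposited table holds log2 expression values, 1 column per array and 41345 probe set rows. Per the submitters' processing notes the authors used RMA (background correction, normalization between arrays, summary of probes) and Transcriptome Analysis Console 4.0. The genome build is not given in the sources used here, and no scan batch was used. The annotation gave exactly 1 symbol for 23521 rows, several for 1814 and none for 16010. Per gene the row of highest mean was kept, which left 22180 genes, and each of the 9 members had 1 such row. Probe levels of the members were not compared with one another.

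The genotype term was fitted gene by gene in limma 3.58.1 under R 4.3.3, using lmFit and eBayes (trend on), and two-sided p-values were adjusted over all genes by Benjamini-Hochberg, with 0.05 as the threshold. The fit was tested on simulated arrays, drawn with independent normal noise from each gene's own mean and residual spread. Log2 changes of 0.5, 1, 2 and 3 were added to some genes. The fit recovered 1.2% of the changes of 0.5, 48% of those of 1 and 91.6% of those of 2. These shares belong to that setting and are not the power of the real comparison, where no gene passed. Differences as small as those of the members would rarely pass in such a setting. Figures were drawn with matplotlib 3.10.9. The members and lists were chosen with earlier results of these data known. All 9 members are described, and 3 genes of smallest p from each list are named.

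Same-numbered arrays may be pairs: their deviations from the group means correlated across genes at 0.121, 0.25 and 0.127, each above 0.1, although wild type replicate 1 correlated at 0.13 with knockout replicate 3. No label says what a number shares. A blocked fit (replicate number) was an alternative, beside other priors, array weights, normalizations, filters, row choices, a luminal covariate and leaving out each array. Array number limits the precision.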

Additional observations from a re-analysis of the deposited data

How the results depend on the processing

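No gene, member or listed adhesion gene passed the adjusted threshold under any alternative that kept it: 0 passed with other priors, array weights, quantile normalization, median centring, a mean level of at least 5, other row choices, the luminal covariate, the replicate block or without any one array, and the smallest adjusted p of a member over all of them was 0.601. An unadjusted p under 0.05 was reached by 736 genes, 0 members and 1 listed adhesion gene, and by 1112 genes with the replicate block and 1970 with array weights. The replicate block changed no call, and its standard errors for Itga6, Itgb4 and Dst were 0.128, 0.167 and 0.181. Those for Itga3 (0.155 against 0.148) and Lama3 (0.149 against 0.142) were larger than in the main fit. For every other member the block gave a smaller one. The median of the 9 members lay between -0.076 and 0.058 without one array, at -0.076 without wild type replicate 3 and -0.042 without wild type replicate 2. It was 0.027 with the block and -0.032 with the luminal covariate. The number of members with groups apart lay between 1 and 3 without one array, where 14.4% to 24.3% of all genes lay apart. It was 3 without knockout replicate 2 (Col17a1, Itga3 and Plec), and 2 without knockout replicate 3 or wild type replicate 2 (Itga3 and Itgb4) and without wild type replicate 1 (Itga3 and Lama3). Other priors, the filter on mean level, other row choices and the replicate block left each member's log2 fold change unchanged by construction. Of 144 single-gene values under alternatives, a count that includes these, 131 kept their sign. The other 13 turned, 2 of them outside the array removals: Itga6 at -0.047 with the luminal covariate and Itgb1 at 0.0020 with quantile normalization. Without one array, Itga6 lay between -0.045 and 0.13, Itgb1 between -0.13 and 0.080, Col17a1 between -0.18 and 0.048, Dst between -0.19 and 0.18, Itgb4 between 0.062 and 0.336 and Lamb3 between -0.077 and 0.23. Apart from the alternatives' own construction, the causes of these turns were not tested.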
